A study of Mus musculus with 12 samples.

Results

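Type I interferon-stimulated genes were followed as a module of 37 named genes in RNA sequencing of cells sorted from infarcted mouse hearts. The genes were chosen by symbol, as classical targets of type I interferon, and guanylate-binding and immunity-related GTPases were left out. Of the 37 genes, 35 were measured in all 12 libraries, out of 17952 genes in all; Mx1 and Mx2 were not analysed here. All 35 passed the filter on low counts in every comparison.

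All mice carried the alleles p16-2A-CreER and R26-mTmG, underwent myocardial infarction (MI) surgery, and received tamoxifen by gavage on day 5. The first allele places a Cre recombinase that works only with tamoxifen under the p16 (Cdkn2a) locus, whose activity is widely used as a sign of cellular senescence, and the second turns a cell green once Cre has acted. On day 7 the infarct zone was digested and the cells left after removal of cardiomyocytes were sorted. The groups were P16hi PDGFRa and P16lo PDGFRa, which are cells of high or low green fluorescence that stained strongly for the fibroblast receptor PDGFRa, and P16hi F480 and P16lo F480, the same for the macrophage surface protein F480. Each group held 3 libraries. Green fluorescence records p16 locus activity around the time of tamoxifen, in any cell type that switched the locus on. The labels give neither age nor sex, nor do they state whether each library had its own animals. P-values therefore reflect the spread among the sequenced samples alone, part or all of which may be technical.

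Type I interferons are secreted when cells sense foreign or misplaced nucleic acid. They bind the receptor made of Ifnar1 and Ifnar2, the kinases Jak1 and Tyk2 phosphorylate STAT proteins, Stat2 among them, and these join Irf9 in a complex that binds the interferon-stimulated response element (ISRE) in target promoters. The targets include sensors and transcription factors that amplify the response, antiviral effectors, and brakes such as Usp18; after infarction, such genes are known to be induced in heart macrophages that take up DNA of dying cells, and senescent cells can also turn them on.

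Total counts ran from 3.16 M to 27.9 M per library (M, 1000000 counts), with 3.16 M to 10.2 M in P16hi PDGFRa against 13.5 M to 18.9 M in P16lo PDGFRa, and 15.5 M to 27.9 M in P16hi F480 against 22.9 M to 27.7 M in P16lo F480. The sorting gene Cdkn2a had 5 to 26 counts per P16hi library, against 2 to 5 counts per P16lo library. All 10 fibroblast markers and all 10 macrophage markers were above 0 in every library. Levels below are in CPM (counts per 1000000, with library sizes scaled by edgeR's TMM). Macrophage markers nonetheless exceeded fibroblast markers in 4 of the 6 PDGFRa libraries: they summed to 16740, 12460 and 5612 CPM in P16hi PDGFRa libraries 1 to 3, against 26850, 6043 and 1696 CPM in P16lo PDGFRa libraries 1 to 3, where fibroblast markers summed to 6233, 2907 and 9406 CPM in P16hi, against 1336, 3802 and 25580 CPM in P16lo. Pdgfra itself had 20.2, 8.61 and 46.5 CPM in P16hi PDGFRa libraries 1 to 3, against 4.65, 6.76 and 165 CPM in P16lo PDGFRa, and Adgre1, the F480 gene, had 255, 221 and 135 CPM in P16hi PDGFRa, against 772, 52.0 and 28.7 CPM in P16lo PDGFRa. Cdkn2a, on its few counts, ran from 0.62 to 1.84 CPM in P16hi PDGFRa, against 0.10 to 0.33 CPM in P16lo PDGFRa. In F480 cells Cdkn2a ran from 0.55 to 1.01 CPM in P16hi, against 0.11 to 0.19 CPM in P16lo. P16lo PDGFRa library 3 held 44.8% hemoglobin counts and library 2 held 18.7%. P16lo F480 library 3 went against its label: Adgre1 had 33.5 CPM there, against 1137 and 1591 CPM in the other P16lo F480 libraries, with B cell markers at 6331 CPM. The 3 P16hi F480 libraries had 1802, 226 and 360 CPM of Adgre1. Medians of the 35 genes, and the genes that lead a comparison, are also given without the library that stands apart. In bulk samples such as these, fewer cells of a type and less RNA per cell cannot be told apart.

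The letters of the ISRE were present in the promoter windows of many of the 35 genes. In the RefSeq promoter table (GRCm38.p6; 250 bases before to 50 after a start site), 28 of the 35 genes had an entry, and Dhx58, Rtp4, Usp18, Oas2, Parp14, Zbp1 and Ifi27l2a had none. The motif GAAA NN GAAA (N, any base), searched on both strands with overlaps allowed, was found in 14 of these 28 genes (50%), against 3.99% of the 27025 genes in the table. In Ifih1, Ddx58, Ifitm3 and Eif2ak2 the matches lay only after the start site. The letters of the gamma-activated site, TTCNNNGAA, which read the same on both strands, were found in 7 of the 28 genes (25%), against 9.55% of all genes. Since the genes were chosen as classical interferon targets, these shares describe the list and are no result of the libraries. Printed below are 5 genes with the ISRE letters, and Cmpk2 and Xaf1, which lack them in this window. Of the 35 genes, only these last 2 had every P16hi PDGFRa library above every P16lo library, against 7.92% of all genes tested. Each stretch is on its gene's own strand, with capitals marking every match to the ISRE motif or its reverse complement.
Isg15: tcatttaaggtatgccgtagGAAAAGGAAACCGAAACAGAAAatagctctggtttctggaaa
Ifit1: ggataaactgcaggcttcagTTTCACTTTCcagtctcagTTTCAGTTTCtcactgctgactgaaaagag
Bst2: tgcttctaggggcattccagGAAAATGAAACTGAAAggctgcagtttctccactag
Oas3: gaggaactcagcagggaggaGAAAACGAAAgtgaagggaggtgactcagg
Stat2: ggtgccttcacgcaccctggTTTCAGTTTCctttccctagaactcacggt
Cmpk2: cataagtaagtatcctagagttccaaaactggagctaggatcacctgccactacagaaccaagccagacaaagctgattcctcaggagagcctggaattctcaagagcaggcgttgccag
Xaf1: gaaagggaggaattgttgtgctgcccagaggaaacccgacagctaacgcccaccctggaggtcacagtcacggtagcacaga

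These stretches lie at chr4:156200855-156200916 (minus strand) for Isg15, chr19:34640765-34640833 (plus) for Ifit1, chr8:71537567-71537622 (minus) for Bst2, and chr5:120777705-120777754 (minus) for Oas3. Those of Stat2, Cmpk2 and Xaf1 lie at chr10:128270256-128270305, chr12:26468997-26469116 and chr11:72301379-72301460, all on the plus strand. Each is outside the range of its gene. Isg15 holds 3 overlapping matches and Bst2 holds 2, while Ifit1 holds 2 matches that do not overlap. A match is a run of letters and does not show binding. The 14 genes with the letters had a median log2 fold change, P16hi against P16lo, of 0.16 in PDGFRa cells, and the 14 genes without them 0.52; in F480 cells the medians were -0.03 and 0.07.

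Per length, the most abundant of the genes across all 12 libraries was Ifitm3, an endosomal membrane protein that blocks viral entry, with a median of 3245 TPM (transcripts per 1000000, from the deposited FPKM) and a range from 976 to 8004 TPM. Ifi27l2a, a small interferon-induced membrane protein, followed with a median of 2011 TPM, then the tethering protein Bst2 with 494 TPM. The ubiquitin-like modifier Isg15 had a median of 206 TPM and Irf7, the factor that amplifies interferon production, 180 TPM. At the low end were Herc6, a ubiquitin ligase (5.05 TPM), and Ifi44 (6.45 TPM). Neighbours in this order overlapped in their ranges: Isg15 ran from 58.1 to 623 TPM and Irf7 from 36.2 to 588 TPM over the 12 libraries.

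In PDGFRa cells, most of the genes had somewhat higher estimates in P16hi than in P16lo, but none of the differences passed the test and a single P16hi library stood above the rest. By edgeR's quasi-likelihood test, 0 of the 35 genes and 0 of 13262 genes tested (0.0%) had a Benjamini-Hochberg adjusted p under 0.05, and the smallest adjusted p over all genes was 0.0838. DESeq2 called 304 genes and limma on log2(TPM + 1) called 176, with 0 of the 35 genes among them in either. Of the 35 genes, 29 had a log2 fold change above 0, against 40.4% of all genes tested. Their median was 0.35, against -0.17 over all genes, and their range was -2.10 to 1.65. At an unadjusted p under 0.05, 2 of the 35 genes were higher, against 4.8% of all genes, and 0 were lower, against 1.67%. Groups did not overlap for 2 genes, both higher in every P16hi library, against 7.92% of all genes, and no gene was lower in every P16hi library, against 6.92%.

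**Figure D1:**
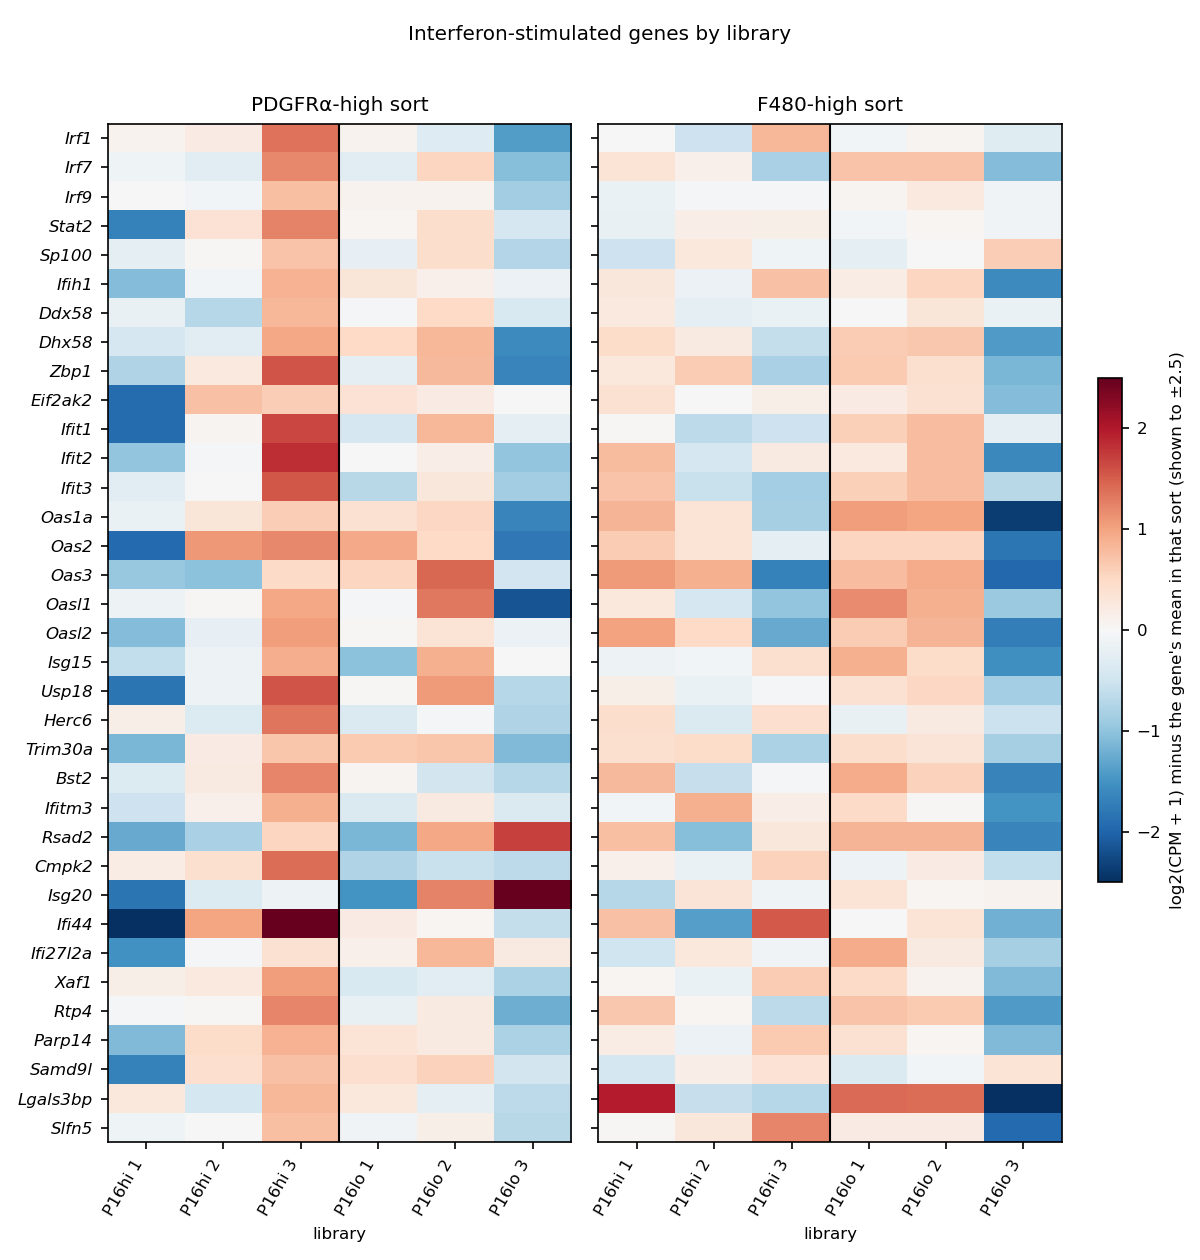
Level of the 35 genes in each library as log2(CPM + 1) minus the mean of the gene over the 6 libraries of its sort, PDGFRa on the left and F480 on the right, with P16hi libraries left of P16lo libraries in each. P16hi PDGFRa library 3 is the highest of its 6 libraries for 29 genes, and P16lo F480 library 3 is the lowest of its 6 for 24 genes.

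P16hi PDGFRa library 3 was the highest of the 6 PDGFRa libraries for 29 of the 35 genes. It exceeded P16hi library 1 for 35 genes and P16hi library 2 for 34, and its median ratio to the highest other library was 1.5. The 35 genes summed to 3465, 5071 and 9604 CPM in P16hi PDGFRa libraries 1 to 3, against 4585, 6473 and 4202 CPM in P16lo PDGFRa libraries 1 to 3. Thus P16hi library 1 was the lowest of all 6 by this sum, and the lowest library for 15 genes, while P16lo library 3 was the lowest for 16. Without P16hi library 3, the median log2 fold change was -0.13, with 12 of 35 genes above 0 and a median of -0.23 over all genes tested. Without P16lo library 3, the library of high hemoglobin, it was 0.07 with 19 genes above 0. The median ran from 0.34 to 0.63 when any other library was left out.

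**Figure D2:**
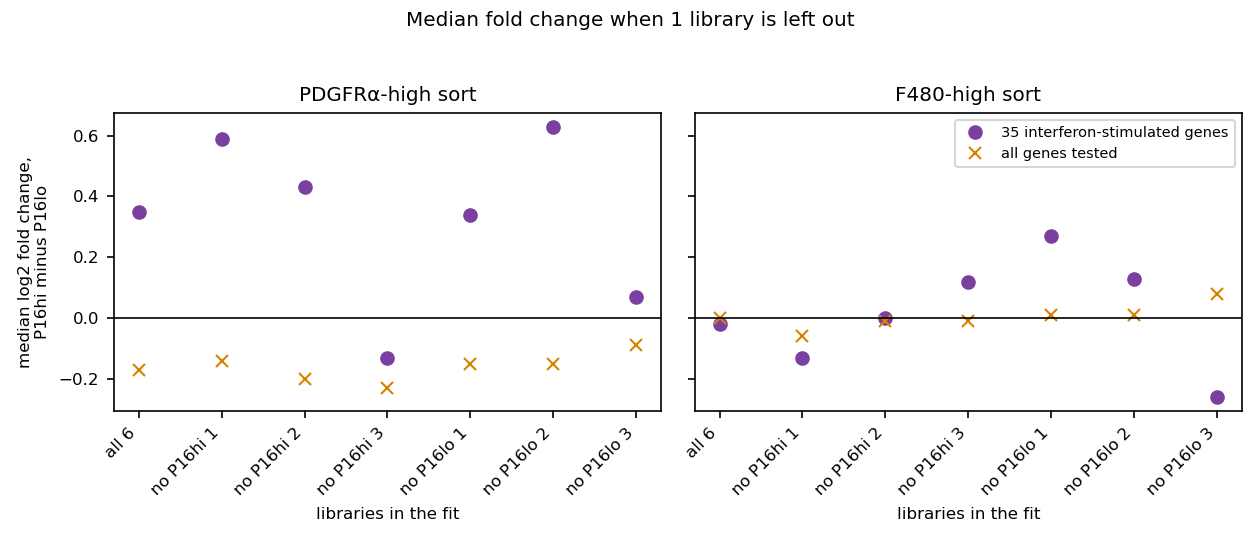
Median log2 fold change, P16hi minus P16lo, of the 35 genes (circles) and of all genes tested (crosses) with all 6 libraries and with each library left out in turn. In PDGFRa cells the median of the 35 genes is 0.35 with all libraries and -0.13 without P16hi library 3; in F480 cells it is -0.02 with all libraries and -0.26 without P16lo library 3.

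Markers of other cells also differed between the PDGFRa libraries. Cardiomyocyte markers, 10 of 10 above 0 in each library, summed to 2512 to 9028 CPM in P16hi, against 270 to 334 CPM in P16lo. Endothelial markers, also 10 of 10, summed to 1964 to 3227 CPM in P16hi, against 412 to 869 CPM in P16lo, with the highest sum in P16hi library 3. T and NK cell markers, 10 of 11 measured, summed to 33.4 to 200 CPM in P16hi, against 26.3 to 1135 CPM in P16lo, and P16hi library 1 had 4 of them at 0, Cd3d and Ncr1 included. Recruited monocyte markers summed to 184 to 508 CPM in P16hi, against 825, 4760 and 400 CPM in P16lo libraries 1 to 3. Neutrophil markers summed to 56.6 to 168.5 CPM in P16hi, against 106, 2162 and 190 CPM in P16lo. B cell markers, 5 of 6 measured, summed to 31.8 to 309 CPM in P16hi, against 67.9, 1021 and 128.5 CPM in P16lo. The part of these other cells in the levels of the interferon-stimulated genes was not tested.

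Among the transcription factors and signalling genes, all 5 had estimates above 0, with a median of 0.45. Irf1, a factor induced by both interferon types, had 149, 163 and 362 CPM in P16hi PDGFRa libraries 1 to 3, against 151, 112 and 52.9 CPM in P16lo (log2 fold change 1.09, SE 0.53; edgeR adjusted p = 0.802). P16hi library 3 was the highest and P16lo library 3 the lowest, and P16lo library 1 lay just above P16hi library 1. Without P16hi library 3 the estimate of Irf1 was 0.57. Irf7 had 270, 238 and 672 CPM in P16hi, against 243, 421 and 139 CPM in P16lo (0.56, SE 0.57; edgeR adjusted p = 0.879), so that P16lo library 2 lay above P16hi libraries 1 and 2. Stat2, a subunit of the complex that binds the ISRE, had 18.4, 79.5 and 147 CPM in P16hi, against 63.4, 83.8 and 45.6 CPM in P16lo (0.35, SE 0.67; edgeR adjusted p = 0.918). Here P16hi held both the highest and the lowest library. Irf9, the DNA-binding subunit of that complex, ran from 85.3 to 152 CPM in P16hi, against 48.9 to 96.3 CPM in P16lo, and Sp100, a nuclear body protein, from 108 to 213 CPM in P16hi, against 77.6 to 174 CPM in P16lo.

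Of the 5 nucleic acid sensors, 4 had estimates close to 0, from 0.01 to 0.06, and Zbp1 was at 0.71 (SE 0.76), for a median of 0.02. Ifih1, which encodes the double-stranded RNA sensor MDA5, had 18.4, 38.3 and 74.6 CPM in P16hi PDGFRa libraries 1 to 3, against 49.7, 44.3 and 36.5 CPM in P16lo (0.01, SE 0.50; edgeR adjusted p = 0.996). The 3 P16lo libraries lay between the extremes of P16hi. Ddx58, the gene of the RNA sensor RIG-I, ran from 25.3 to 75.2 CPM in P16hi, against 32.1 to 59.7 CPM in P16lo. Zbp1, a sensor of Z-form nucleic acid that can trigger cell death, ran from 43.5 to 220 CPM in P16hi, against 22.8 to 130 CPM in P16lo. For Eif2ak2, the RNA-activated kinase PKR, P16hi library 1 rested on 29 counts.

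The IFIT genes, whose proteins bind foreign RNA, had the highest median of the roles, at 0.97 with 3 of 3 above 0. Ifit3 had 99.8, 124 and 363 CPM in P16hi PDGFRa libraries 1 to 3, against 74.8, 150 and 66.2 CPM in P16lo (1.01, SE 0.59; edgeR adjusted p = 0.862). P16hi library 3 was more than 2-fold above every other library, and P16lo library 2 lay above the remaining P16hi libraries. Ifit2 had 22.0, 43.6 and 163 CPM in P16hi, against 44.4, 50.5 and 21.9 CPM in P16lo. Ifit1 had 8.26, 36.0 and 110 CPM in P16hi, against 25.3, 61.1 and 28.9 CPM in P16lo. For both genes P16hi library 3 was again far above the rest, and without it the estimate of Ifit3 was 0.20.

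The oligoadenylate synthetase family makes the small molecule that activates RNase L, an activity that its relative Oasl1 lacks. Its 5 genes had a median of 0.09, with 4 above 0. Oas2 had 10.1, 89.0 and 97 CPM in P16hi PDGFRa libraries 1 to 3, against 81.1, 59.1 and 11.3 CPM in P16lo (0.38, SE 0.91; edgeR adjusted p = 0.929). Each group thus held 1 library near 10 CPM. Oas3 had 13.8, 12.8 and 38.7 CPM in P16hi, against 39.9, 75.9 and 19.2 CPM in P16lo (-1.04, SE 0.64; edgeR adjusted p = 0.873), one of 6 genes with an estimate below 0.

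In the role of ISG15 system and ubiquitin ligases, 3 of 4 genes had estimates above 0, all but Trim30a, with a median of 0.11. Isg15 itself had 83.8, 118 and 245 CPM in P16hi PDGFRa libraries 1 to 3, against 63.0, 241 and 129 CPM in P16lo (0.05, SE 0.59; edgeR adjusted p = 0.986). P16hi library 3 and P16lo library 2 were nearly equal. Usp18, which removes ISG15 from proteins and dampens receptor signalling, had 8.26, 29.2 and 97.4 CPM in P16hi, against 32.5, 68.4 and 19.2 CPM in P16lo (0.18, SE 0.85; edgeR adjusted p = 0.962). The lowest P16hi value of Usp18 rested on 27 counts. Herc6, the mouse ligase for ISG15, had 31.5, 22.1 and 72.5 CPM in P16hi, against 21.6, 27.8 and 16.4 CPM in P16lo (0.94, SE 0.51; edgeR adjusted p = 0.835). Only P16lo library 2 reached above a P16hi library. The estimate of Herc6 was 0.28 without P16hi library 3.

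Of the membrane proteins, Bst2 had 209, 311 and 621 CPM in P16hi PDGFRa libraries 1 to 3, against 278, 193 and 161 CPM in P16lo (0.85, SE 0.48; edgeR adjusted p = 0.852). P16lo library 1 lay between P16hi libraries 1 and 2, and the estimate of Bst2 was 0.3 without P16hi library 3. Ifitm3 had 948, 1480 and 2528 CPM in P16hi, against 1065, 1602 and 1066 CPM in P16lo (0.41, SE 0.45; edgeR adjusted p = 0.880). Its groups overlapped, with P16hi library 1 the lowest of the 6.

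The nucleotide and RNA enzymes split. Cmpk2, a nucleoside monophosphate kinase that sits beside Rsad2 on chromosome 12 (chr12:26469117-26479837, GRCm38.p6), had 42.8, 49.6 and 99.8 CPM in P16hi PDGFRa libraries 1 to 3, against 21.8, 25.0 and 23.5 CPM in P16lo. Every P16hi library lay above every P16lo library, as for 7.92% of all genes tested, and the 3 P16lo values lay close together. The log2 fold change was 1.45 (SE 0.40; edgeR adjusted p = 0.452), and it ran from 0.97 to 1.66 with each library left out in turn. Its counts were whole numbers in every library. Rsad2, the radical enzyme viperin, had 58.5, 80.0 and 206 CPM in P16hi, against 63.9, 278 and 468 CPM in P16lo (-1.23, SE 0.77; edgeR adjusted p = 0.873). Isg20, an RNA exonuclease, had 17.4, 51.0 and 59.4 CPM in P16hi, against 22.4, 154 and 375 CPM in P16lo (-2.10, SE 0.94; edgeR adjusted p = 0.787). For both genes the 2 highest libraries were P16lo libraries 3 and 2, which also held 44.8% and 18.7% hemoglobin counts. P16lo library 2 also had the highest sums of recruited monocyte, neutrophil, B cell, and T and NK cell markers among the PDGFRa libraries. The part of red blood cell RNA or of these other cells in these values was not tested. Without P16lo library 3 the estimate was -1.06 for Isg20 and -0.58 for Rsad2. Leaving out the same library gave 1.45 for Cmpk2.

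**Figure D3:**
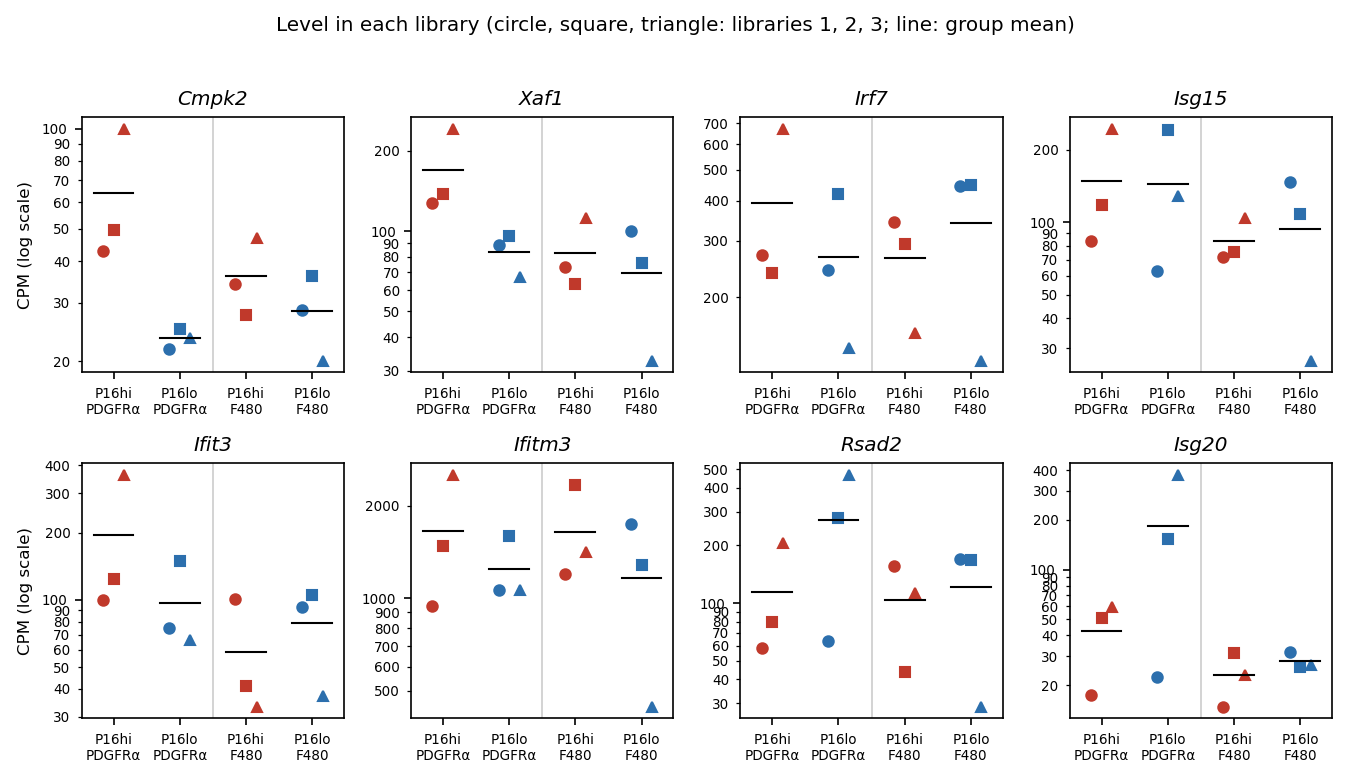
CPM on a log axis of 8 of the genes in each library, P16hi (red) left of P16lo (blue) within each sort, with circles, squares and triangles for libraries 1, 2 and 3 and a line at the group mean. The 3 P16hi PDGFRa libraries of Cmpk2 and Xaf1 lie above all 3 P16lo PDGFRa libraries, as for 7.92% of all genes tested. Rsad2 and Isg20 are highest in P16lo PDGFRa library 3.

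Of the 8 other effectors, 6 had estimates above 0, with a median of 0.46. Xaf1, a pro-apoptotic binding partner of XIAP (chr11:72301461-72313733, GRCm38.p6), had 128, 138 and 242 CPM in P16hi PDGFRa libraries 1 to 3, against 88.6, 95.7 and 67.0 CPM in P16lo. As with Cmpk2 and 7.92% of all genes tested, every P16hi library lay above every P16lo library. The log2 fold change was 1.01 (SE 0.37; edgeR adjusted p = 0.667). Without P16lo library 3 it was 0.87, and without P16hi library 3 it was 0.66. The deposited counts of Xaf1 were not whole in any of the 12 libraries, so they are estimates and uncertain. Rtp4, a receptor transporter that restrains interferon responses, had 108, 113 and 258 CPM in P16hi, against 97.5, 129 and 46.9 CPM in P16lo (0.81, SE 0.52; edgeR adjusted p = 0.873). The estimate of Rtp4 ran from 0.27 to 1.14 with each library left out in turn. Ifi44 had the widest spread, with 1.22, 42.7 and 143 CPM in P16hi, against 24.4, 21.9 and 13.6 CPM in P16lo. The lowest of these rested on 4 counts, and P16hi held both the highest and the lowest library. Slfn5 ran from 122 to 224 CPM in P16hi, against 80.6 to 145 CPM in P16lo, and Ifi27l2a from 198 to 739 CPM in P16hi, against 624 to 1011 CPM in P16lo.

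In F480 cells the genes were divided about evenly and no difference passed the test. By edgeR's quasi-likelihood test, 0 of the 35 genes and 0 of 12490 genes tested (0.0%) had an adjusted p under 0.05, and every gene had an adjusted p of 0.999 or more. DESeq2 called 3 genes, none of the 35, and limma on log2(TPM + 1) called 0. Estimates were above 0 for 17 genes and below 0 for 18, against 50% above 0 over all genes. The median was -0.02 and the range -0.94 to 0.93. At an unadjusted p under 0.05, 0 of the 35 genes were higher, against 1.94% of all genes, and 0 were lower, against 0.304%. P16hi and P16lo overlapped for all 35, where 3.37% of all genes were higher and 3.48% lower in every P16hi library.

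**Figure D4:**
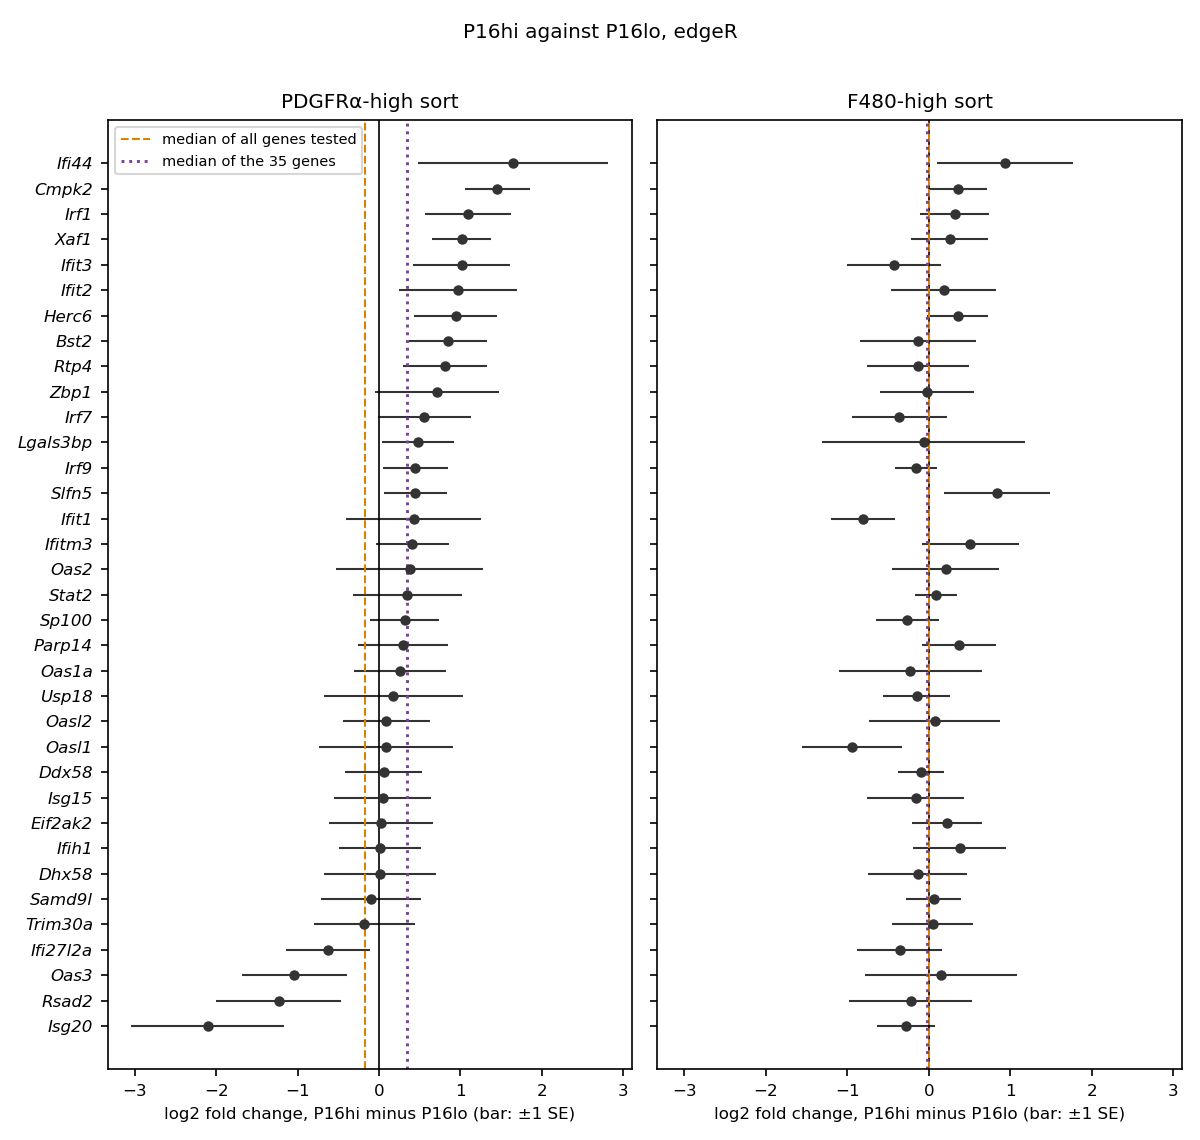
Log2 fold change of each gene, P16hi minus P16lo, with bars of 1 SE, in PDGFRa cells (left) and F480 cells (right), ordered by the PDGFRa estimate; the dashed line is the median of all genes tested and the dotted line that of the 35 genes. Estimates run from -2.10 (Isg20) to 1.65 (Ifi44) in PDGFRa cells and from -0.94 to 0.93 in F480 cells.

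P16lo F480 library 3, the library of low Adgre1, was the lowest of the 6 F480 libraries for 24 of the 35 genes. The genes summed to 5930, 5521 and 4555 CPM in P16hi F480 libraries 1 to 3, against 6851, 6079 and 2102 CPM in P16lo. Across all genes, P16lo libraries 1 and 2 correlated at 0.989 with each other, and at 0.762 and 0.757 with library 3. Without P16lo library 3 the median log2 fold change was -0.26, with 10 of 35 genes above 0. Without P16hi library 3 it was 0.12.

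Markers of other cells differed between the F480 libraries too. Macrophage markers, 10 of 10 above 0 throughout, summed to 14190 to 49980 CPM in P16hi F480, against 2301 to 29040 CPM in P16lo F480. P16hi library 3 stood apart in endothelial markers, which summed to 37, 40.9 and 4475 CPM in P16hi, against 33.1, 36.2 and 144 CPM in P16lo. It also had the most cardiomyocyte markers, with 25.3, 5.65 and 936 CPM in P16hi, against 11.7, 11 and 3.24 CPM in P16lo. All 10 were above 0 in P16hi library 3, while Myh6, Mb, Ryr2 and Pln were at 0 in at least 1 other F480 library. Recruited monocyte markers summed to 310, 5023 and 351 CPM in P16hi, against 1429, 1441 and 1677 CPM in P16lo. For B cell markers the sums were 23.3, 1454 and 168 CPM in P16hi, against 447, 399 and 6331 CPM in P16lo. For neutrophil markers they were 241, 527 and 108 CPM in P16hi, against 158, 154 and 528 CPM in P16lo. P16hi library 3 was the highest F480 library for 8 of the 35 genes, namely Irf1, Ifih1, Cmpk2, Ifi44, Xaf1, Parp14, Samd9l and Slfn5. The part of these other cells in the levels was not tested.

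The deposited F480 table lists its libraries in 2 column blocks, and the direction differed between them. In the first, P16hi libraries 2 and 3 were both above P16lo library 3 for 26 of 35 genes (74.3%) and both below it for 2, against 33.1% and 34.7% of all genes tested. In the second, P16hi library 1 was above both P16lo libraries 1 and 2 for 7 genes and below both for 18 (51.4%), against 39.6% and 41.1% of all genes. The median difference of log2 levels was 1.11 in the first block and -0.10 in the second. With the block as a term in edgeR, the median was 0.53 with 28 genes above 0, and 0 genes were called. The meaning of the blocks is not given in the labels, and each holds only 1 library of one of the groups. In the first block the only P16lo library is library 3, the library of low Adgre1, which was the lowest for 24 of the 35 genes. Block and library therefore cannot be told apart there. In the PDGFRa table P16hi library 1 has a block of its own, so the other block alone gives a value, a median of 0.59 without P16hi library 1.

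Ifit1 had the smallest p in F480 cells. It had 26.3, 15.9 and 17.7 CPM in P16hi F480 libraries 1 to 3, against 39.3, 44.2 and 21.7 CPM in P16lo (-0.81, SE 0.39; edgeR adjusted p = 0.999). P16hi library 1 lay above P16lo library 3, so that the groups overlapped by this pair alone. Oasl1, which binds the Irf7 messenger RNA and limits its translation in mice, had 42.6, 26.1 and 17.2 CPM in P16hi, against 81.2, 65.7 and 18.2 CPM in P16lo (-0.94, SE 0.62; edgeR adjusted p = 0.999). Slfn5, a Schlafen family protein, had 143, 170 and 329 CPM in P16hi, against 161, 162 and 35.9 CPM in P16lo (0.84, SE 0.65; edgeR adjusted p = 0.999). Oasl1 and Slfn5 differed in which group held the extreme libraries, and for both P16lo library 3 lay apart from the other 2 P16lo libraries. Without that library Ifit1 was at -1.06 (SE 0.33) and Oasl1 at -1.36 (SE 0.44), both with an edgeR adjusted p of 1 and an unadjusted p under 0.05. Slfn5 was then at 0.41, and at 0.39 without P16hi library 3.

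Of the other genes of small p, Ifi44 had 20.1, 3.90 and 35.7 CPM in P16hi F480 libraries 1 to 3, against 11.6, 15.2 and 4.50 CPM in P16lo (0.93, SE 0.83; edgeR adjusted p = 0.999). P16hi held both the highest and the lowest library, and the estimate was 0.57 without P16lo library 3 and 0.21 without P16hi library 3. Irf1 had 192, 132 and 341 CPM in P16hi, against 181, 199 and 154 CPM in P16lo (0.32, SE 0.43; edgeR adjusted p = 0.999). Its estimate was -0.13 without P16hi library 3. Parp14, a mono-ADP-ribosyltransferase, had 58.4, 46.2 and 81.0 CPM in P16hi, against 67.0, 53.4 and 23.4 CPM in P16lo (0.37, SE 0.45; edgeR adjusted p = 0.999), and was at 0.04 without P16lo library 3. Herc6 was at 0.36 (SE 0.37) and Isg20 at -0.28 (SE 0.36), both with an edgeR adjusted p of 0.999, and the groups overlapped for each. The same adjusted p held for Ifih1 at 0.38 (SE 0.57), Ifit3 at -0.43 (SE 0.57), Oas2 at 0.21 (SE 0.65), Rsad2 at -0.22 (SE 0.75), Usp18 at -0.15 (SE 0.41) and Stat2 at 0.09 (SE 0.26).

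Cmpk2, the gene of smallest p in PDGFRa cells, had 34.2, 27.5 and 46.8 CPM in P16hi F480 libraries 1 to 3, against 28.6, 36.2 and 20.1 CPM in P16lo (0.36, SE 0.36; edgeR adjusted p = 0.999). The groups overlapped, with P16lo library 2 above P16hi libraries 1 and 2. Xaf1 ran from 63.3 to 112 CPM in P16hi, against 32.6 to 99.7 CPM in P16lo. Isg15 had 71.8, 75.5 and 104 CPM in P16hi, against 147, 108 and 26.6 CPM in P16lo (-0.16, SE 0.60; edgeR adjusted p = 0.999). All 3 P16hi values of Isg15 lay below P16lo libraries 1 and 2 and above library 3. The same order held for Irf7, with 344, 294 and 155 CPM in P16hi, against 447, 447 and 126 CPM in P16lo (-0.36, SE 0.59; edgeR adjusted p = 0.999). Without P16lo library 3 the estimates were 0.16 for Cmpk2, -0.61 for Isg15 and -0.76 for Irf7.

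Among the remaining genes in F480 cells, Ifitm3 had 1198, 2339 and 1416 CPM in P16hi libraries 1 to 3, against 1751, 1289 and 444 CPM in P16lo (0.51, SE 0.60; edgeR adjusted p = 0.999). Bst2 had 417, 159 and 230 CPM in P16hi, against 455, 353 and 73.8 CPM in P16lo (-0.13, SE 0.71; edgeR adjusted p = 0.999). Without P16lo library 3 Ifitm3 was at 0.12 and Bst2 at -0.59. Lgals3bp, a secreted glycoprotein that binds galectin-3, varied most between libraries. It had 1214, 208 and 189 CPM in P16hi, against 832, 825 and 27.2 CPM in P16lo. P16hi library 1 and P16lo libraries 1 and 2, which share a column block and had the highest Adgre1, were the 3 high libraries. By role, the median was -0.43 for the IFIT genes, -0.16 for the transcription factors, -0.02 for the sensors and 0.07 for the oligoadenylate synthetase family. It was -0.05 for the ISG15 system and ubiquitin ligases, and 0.19 for the membrane proteins. The nucleotide and RNA enzymes had a median of -0.22 and the other effectors 0.16.

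Whether the difference between P16hi and P16lo itself differed between F480 and PDGFRa cells was tested over all 12 libraries. By edgeR's quasi-likelihood test, 0 of the 35 genes and 0 of 14073 genes tested (0.0%) passed, and all adjusted p-values were 0.9999 or more; DESeq2 called 8 genes, none of the 35, and limma on log2(TPM + 1) called 0. The estimate, the F480 difference minus the PDGFRa difference, was above 0 for 11 genes, against 59.4% of all genes, with a median of -0.37, against 0.20 over all genes. At an unadjusted p under 0.05, 0 of the 35 genes were higher, against 1.32% of all genes, and 0 were lower, against 0.803%. Cmpk2 had the smallest p, at -1.16 (SE 0.53; edgeR adjusted p = 0.9999). Isg20 followed at 1.78 (SE 1.08) and Ifit3 at -1.48 (SE 0.89), both with an edgeR adjusted p of 0.9999. The next by p were Irf9 at -0.65 (SE 0.47), Xaf1 at -0.82 (SE 0.60), Ifit1 at -1.28 (SE 1.01), Irf1 at -0.85 (SE 0.69), Bst2 at -1.03 (SE 0.90), Rtp4 at -0.97 (SE 0.87) and Irf7 at -0.95 (SE 0.87), with the same adjusted p. It also held for Rsad2 at 0.95 (SE 1.16), Usp18 at -0.37 (SE 1.04), Stat2 at -0.30 (SE 0.78), Ifih1 at 0.30 (SE 0.80), Isg15 at -0.26 (SE 0.90), Oas2 at -0.20 (SE 1.24) and Ifitm3 at 0.06 (SE 0.76). Without P16lo PDGFRa library 3 Isg20 was at 0.68 and Rsad2 at 0.24, and without P16hi PDGFRa library 3 Ifit1 was at -0.09. Without P16hi PDGFRa library 3 the median was 0.34, with 21 genes above 0 and 0.30 over all genes.

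Upstream of these genes, interferons themselves were barely detected. Of 21 ligand genes listed, 10 were measured and 0 had enough counts to be tested. Ifnb1, the gene of interferon beta, had 0, 0 and 2 counts in P16hi PDGFRa libraries 1 to 3, against 10, 0 and 0 counts in P16lo PDGFRa, and 11, 6 and 0 counts in P16hi F480, against 62, 57 and 0 counts in P16lo F480. A count of 0 allows up to 3 counts, which is 0.948 CPM of the total in the shallowest library and 0.108 CPM in the deepest; these limits cover counting error only. Ifng, the type II interferon, had 18 counts in each of P16lo PDGFRa libraries 2 and 3, and 0 counts in all 3 P16hi PDGFRa libraries. Ifnz, another ligand gene listed, went the other way. It had 0, 0 and 17 counts in P16hi PDGFRa libraries 1 to 3, against 0 counts in each P16lo PDGFRa library. In F480 cells Ifnz had 0, 3 and 8 counts in P16hi, against 0, 1 and 0 counts in P16lo.

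Of the receptor genes, 0 of 5 tested had an estimate above 0 in PDGFRa cells (median -0.33) and 3 of 6 in F480 cells, with 0 past the threshold. Over all genes tested, 40.4% were above 0 in PDGFRa cells (median -0.17) and 50% in F480 cells (median -0.0001). Ifnar1 had 21.7, 86.6 and 58.7 CPM in P16hi PDGFRa libraries 1 to 3, against 163, 95.8 and 74.5 CPM in P16lo (-0.99, SE 0.55; edgeR adjusted p = 0.840). P16hi library 2 lay above P16lo library 3, and the other P16hi libraries lay below all of P16lo. Ifnar2 was at -0.24 (SE 0.40; edgeR adjusted p = 0.911). Ifngr1, a receptor subunit for interferon gamma, was lower in every P16hi library, with 150, 180 and 217 CPM in P16hi, against 424, 308 and 244 CPM in P16lo (-0.84, SE 0.35; edgeR adjusted p = 0.753), as were 6.92% of all genes tested. Ifngr2, the other subunit, was at -0.33 (SE 0.52; edgeR adjusted p = 0.908). In F480 cells Ifnar1 was at -0.51 (SE 0.53), Ifnar2 at -0.25 (SE 0.64), Ifngr1 at 0.30 (SE 0.41) and Ifngr2 at -0.38 (SE 0.64), all with an edgeR adjusted p of 0.999. For the difference between populations Ifngr1 was at 1.11 (SE 0.53), Ifnlr1, a receptor subunit for interferon lambda, at 2.23 (SE 2.55), Ifnar1 at 0.46 (SE 0.82) and Ifnar2 at -0.04 (SE 0.78), all with an edgeR adjusted p of 0.9999.

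Among the 10 kinases, STATs and brakes, 2 had estimates above 0 in PDGFRa cells (median -0.56) and 2 in F480 cells (median -0.18). The shares over all genes tested were 40.4% in PDGFRa cells (median -0.17) and 50% in F480 cells (median -0.0001). Ptpn6, the phosphatase SHP-1 that dampens receptor signalling in blood cells, had 104, 127 and 109 CPM in P16hi PDGFRa libraries 1 to 3, against 259, 370 and 87.1 CPM in P16lo (-1.08, SE 0.52; edgeR adjusted p = 0.802). P16lo library 3 was the lowest of the 6. Jak1, the kinase bound to Ifnar2, was at -0.58 in PDGFRa cells (SE 0.31; edgeR adjusted p = 0.836). It was lower in every P16hi PDGFRa library, as were 6.92% of all genes tested. Jak2, a kinase of the interferon gamma receptor, was at -1.04 in these cells (SE 0.63; edgeR adjusted p = 0.869). In F480 cells Jak2 was at -0.63 (SE 0.39), Tyk2 at 0.37 (SE 0.29) and the brake Socs1 at 0.59 (SE 0.62), all with an edgeR adjusted p of 0.999. For the difference Socs3, another brake, was at 1.11 (SE 1.19) and the phosphatase Ptpn2 at -0.48 (SE 0.57), both with an edgeR adjusted p of 0.9999. Of 18 genes of nucleic acid sensing upstream of interferon, 4 were above 0 in PDGFRa cells and 6 in F480 cells, with medians of -0.27 and -0.18. These stand beside the same 40.4% and 50% of all genes, with medians of -0.17 and -0.0001. In PDGFRa cells the DNA sensor Tlr9 was at -1.09 (SE 0.80), Mavs, the adaptor of the RNA sensors, at 0.44 (SE 0.37) and Tmem173, the gene of STING, at -0.55 (SE 0.47), all with an edgeR adjusted p of 0.878. In F480 cells Rnaseh2b, a subunit of the enzyme that removes RNA from DNA, was at -0.58 (SE 0.37), the factor Irf8 at -0.61 (SE 0.51) and the RNA sensor Tlr7 at 0.63 (SE 0.57), all with an edgeR adjusted p of 0.999. For the difference Tlr7 was at 1.05 (SE 0.87), Mavs at -0.61 (SE 0.58) and Tlr8 at 1.70 (SE 1.68), all with an edgeR adjusted p of 0.9999.

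A wider list of 67 other interferon-stimulated genes had 64 tested in PDGFRa cells and 62 in F480 cells. In PDGFRa cells 39 were above 0 with a median of 0.13, against 40.4% and -0.17 over all genes. In F480 cells 25 were above 0 with a median of -0.19, against 50% and -0.0001 over all genes. None passed the threshold; at an unadjusted p under 0.05, 3 were higher in P16hi PDGFRa, against 4.8% of all genes, and 2 lower, against 1.67%, with 0 either way in F480, against 1.94% and 0.304%. Phf11d, a PHD finger protein gene, had 49.3, 82.9 and 183 CPM in P16hi PDGFRa libraries 1 to 3, against 44.0, 34.7 and 39.1 CPM in P16lo (1.42, SE 0.49; edgeR adjusted p = 0.634). Ly6a, which encodes the surface protein Sca-1 also found on fibroblasts and endothelium, had 962, 1260 and 3096 CPM in P16hi, against 586, 685 and 826 CPM in P16lo (1.34, SE 0.50; edgeR adjusted p = 0.686). Both were higher in every P16hi library, as were 7.92% of all genes, and highest in library 3. Ifi30, a lysosomal thiol reductase gene of antigen-presenting cells, was at -1.36 (SE 0.50; edgeR adjusted p = 0.678), with overlapping groups. In F480 cells Ifi208 was at -1.09 (SE 0.57), Tnfsf10, the gene of the death ligand TRAIL, at 2.09 (SE 1.13) and the chemokine Cxcl10 at -1.01 (SE 0.66), all with an edgeR adjusted p of 0.999. Tnfsf10 had 2.99, 2.07 and 29.7 CPM in P16hi F480 libraries 1 to 3, against 2.08, 4.17 and 1.91 CPM in P16lo, so that P16hi library 3 alone was high. For the difference the chemokine Cxcl9 was at -2.91 (SE 1.17), Ifi208 at -1.76 (SE 0.89) and Nmi at -0.91 (SE 0.52), all with an edgeR adjusted p of 0.9999.

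The values in the deposited TPM column for P16hi F480 library 3 did not match its FPKM, and all 35 genes were affected. The deposited TPM of the 35 genes exceeded the TPM computed from the FPKM by a median of 3.71-fold, from 1.04-fold for Irf1 to 18.4-fold for Oas3. In the other 11 libraries the values for these genes differed by at most 0.654%. The TPM used above were therefore computed from the FPKM in every library.

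**Figure D5:**
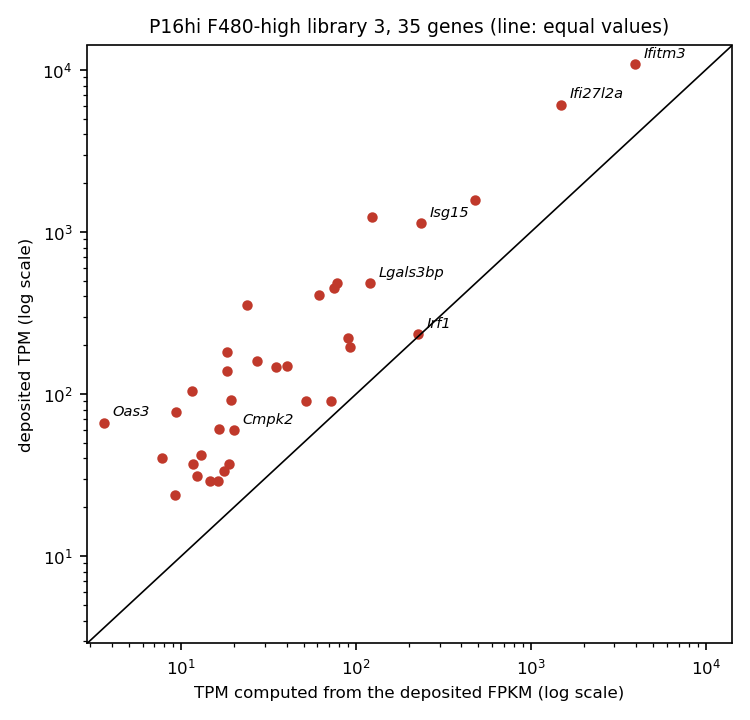
Deposited TPM against TPM computed from the deposited FPKM for the 35 genes in P16hi F480 library 3, both on log axes, with the line of equal values. All 35 genes lie above the line, by a median of 3.71-fold.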

How the data were processed

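Per the labels' protocols, RNA of sorted cells was reverse transcribed, cDNA was fragmented and ligated by a transposase, and libraries were sequenced as DNA nanoballs. The submitters' processing notes name HISAT, GRCm38 and mm10; its version, the counting tool and the strand setting were not given in the sources used here. Each library has estimated counts, FPKM and TPM deposited by the authors, per the file headers, plus a normalised read count that the check of units treats as a signal; the authors' normalised signal was not used. The authors' FPKM were scaled here to sum to 1000000 per library to give TPM, because the deposited TPM of P16hi F480 library 3 are not proportional to its FPKM; the deposited TPM served as a check.

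Each population's table holds 2 column blocks, joined by gene identifier, with genes listed in 1 block only set at 0 in the other; all 35 genes are listed throughout. Columns of per-sample values left unmapped numbered 0. Total estimated counts ran from 3.16 M to 27.9 M per library, and their number limits precision. Rounded counts went into edgeR 4.0.16 under R 4.3.3 (filterByExpr, minimum count 10; TMM; robust quasi-likelihood F-test; Benjamini-Hochberg over all genes tested, threshold 0.05) for P16hi against P16lo in each population, and for the difference of these differences over 12 libraries. SEs come from the F statistic. Descriptive counts use an unadjusted p under 0.05. Alternatives used DESeq2 1.42.0, limma 3.58.1, other scalings and filters, and each library left out. The edgeR step was also run on simulated data, whose outcome is not reported here and is not used as support.

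Of the 35 genes, 12 had counts that were not whole in some library (Stat2, Sp100, Eif2ak2, Ifit1, Ifit2, Ifit3, Oas1a, Oas3, Trim30a, Ifitm3, Xaf1, Slfn5), and 7 have exons that overlap a gene on the other strand (Irf1, Irf7, Dhx58, Eif2ak2, Oasl1, Usp18, Slfn5); these counts are uncertain. Fold changes were named for the 10 genes of smallest p in a comparison and a set list of genes per role; per tested pathway list, for the 3 of smallest p, Ifnar1 and Ifnar2; 1 gene that the rule names is not reported here. Genes, lists and roles were chosen with earlier results of these data known.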

Additional observations from a re-analysis of the deposited data

Results flagged for a closer look

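The deposited TPM of the 35 genes in P16hi F480 library 3 stood apart. They summed to 25470 TPM, against 9737, 8767 and 3105 TPM in P16lo F480 libraries 1 to 3, a level above every P16lo F480 library in a column that the main comparisons do not use. Computed from the FPKM of the same library, the sum was 7498 TPM. In that library 1402 genes with 0 counts have a deposited TPM above 0, against 0 genes in each of the other 11 libraries. With the deposited TPM, limma gave a median log2 fold change of 0.85 in F480 cells, with 35 of 35 genes above 0, against 0.19 and 26 genes with TPM from the FPKM. The cause of the mismatch was not tested.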

How the results depend on the processing

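None of the 35 genes was called in any comparison under any setting. Over all genes in PDGFRa cells, 0 were called by edgeR, but 304 by DESeq2 (293 higher, 11 lower), 39 with library totals, 23 with no low-count filter, 176 by limma on log2(TPM + 1), 88 on log2(TPM + 0.1), and 0 to 17 with a library left out (17 without P16hi 3). DESeq2 called 3 genes in F480 cells and 8 for the difference between populations (6 higher, 2 lower); leaving out a library gave 0 in both. The cause was not tested. Library totals moved the median of all genes by 0.41 and limma on log2(TPM + 1) by 0.62 (log2) in PDGFRa cells, where the median of the 35 genes was then 0.70 and 1.03, and -0.13 to 0.63 with a library left out. In F480 cells it ran from -0.26 to 0.27 with a library left out, was -0.23 without both libraries numbered 3, and was 0.85 with the deposited TPM; for the difference it ran from -0.81 to 0.34, the highest without P16hi PDGFRa 3. Hemoglobin-free totals, genes in both blocks, the deposited TPM, the PDGFRa column block and leaving out both libraries numbered 3 were chosen after seeing the data.

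The labels do not say whether replicate numbers pair the libraries. Deviations of same-numbered libraries correlated at 0.102, -0.0102 and 0.308 in PDGFRa cells, where other pairs ran from -0.343 to 0.228. In F480 cells they correlated at 0.465, -0.299 and 0.139, where other pairs ran from -0.52 to 0.522. With 3 libraries per group, deviations from a group mean depend on each other, so these values cannot settle pairing. With the replicate block, 0 genes were called in each comparison, with medians of 0.32, 0.08 and -0.03. Log2 fold changes that turned with the replicate block were Stat2 (-0.04), Usp18 (-0.41) and Ifih1 (-0.19) in PDGFRa cells, Isg15 (0.08) and Bst2 (0.10) in F480 cells, and Stat2 (0.08), Usp18 (0.33), Oas2 (0.10) and Ifnar2 (0.05) for the difference.

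With the column block, Ifit3 (0.01), Irf7 and Usp18 (0.23), Rsad2 (0.67), Isg15 (0.46), Bst2 (0.72), Ifngr2 (0.10) and Ifnar2 (0.48) turned in F480 cells. With limma at a pseudocount of 1 and 0.1, Usp18 (0.04, 0.04), Rsad2 (0.03, 0.05), Isg15 (0.21, 0.21), Bst2 (0.19, 0.19) and Ifnar2 (0.08, 0.08) turned in F480 cells, Ifngr2 (0.57, 0.59), Ifnar2 (0.62, 0.63), Jak1 (0.11, 0.12) and Tmem173 (0.23, 0.25) in PDGFRa cells, and Ifitm3 (-0.31, -0.31) and Ifnar1 (-0.11, -0.09) for the difference. Ifnar2 was 0.08 in PDGFRa cells with library totals, and Ifitm3 for the difference was -0.20 with library totals and -0.00 with DESeq2 size factors and DESeq2.

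With a library left out, values that changed sign in PDGFRa cells were Ifih1 (-0.62 to 0.37), Ifitm3 (-0.04 to 0.68), Irf7 (-0.08 to 1.04), Isg15 (-0.52 to 0.63), Oas2 (-0.11 to 0.90), Stat2 (-0.39 to 0.80), Usp18 (-1.09 to 0.80), Ifnar2 (-0.49 to 0.21) and Ifngr2 (-0.71 to 0.29). In F480 cells they were Bst2 (-0.61 to 0.32), Ifih1 (-0.04 to 0.78), Irf1 (-0.13 to 0.59), Isg15 (-0.61 to 0.30), Oas2 (-0.26 to 0.50), Rsad2 (-0.69 to 0.15), Usp18 (-0.48 to 0.09), Ifnar2 (-0.68 to 0.05), Ifngr1 (-0.07 to 0.54), Socs1 (-0.35 to 0.92) and Tnfsf10 (-0.10 to 2.59). For the difference they were Ifih1 (-0.12 to 0.88), Ifitm3 (-0.33 to 0.48), Isg15 (-0.85 to 0.24), Oas2 (-0.74 to 0.23), Stat2 (-0.81 to 0.41), Usp18 (-1.0 to 0.86) and Ifnar2 (-0.49 to 0.25).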
